A study of Mus musculus with 6 samples.

Results

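The genes described here are the amyloid precursor family and the secretases that cut it, measured in infarcted mouse hearts with and without Zeb2 in cardiomyocytes. They were chosen by name: the precursors App, Aplp1 and Aplp2, the alpha-secretases Adam10 and Adam17, the beta-secretase Bace1 and its relative Bace2, and the gamma-secretase genes Psen2 and Ncstn. All 9 genes were found among the 38293 genes of the count table by their Ensembl identifiers, and all 9 were among the 14746 genes that passed the filter on low counts. RNA-seq libraries of heart tissue were 3 from WT and 3 from Zeb2 cKO mice, 14 days after an infarct made by tying off the left anterior descending coronary artery for good. The strain is given as C57BL/6J (backcrossed), and the methods state male mice that were 8 to 10 weeks old at surgery. Both groups had an infarct, and no library from a heart without infarct was analysed here. The WT mice are, per the methods, Zeb2 fl/fl mice, so both groups carried the floxed allele. Zeb2 cKO mice carried in addition a Cre recombinase under the Myh6 promoter, which is active in cardiomyocytes, and no group carried Cre without the floxed allele. The labels place the tissue in the border region of the infarct, and the methods place it in the remote zone.

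APP and its relatives APLP1 and APLP2 are membrane proteins with a large outer part and a short cytoplasmic tail. Alpha-secretases cut the outer part off within the amyloid-beta stretch of APP, whereas beta-secretase cuts in front of it. The membrane stub that is left is cut by gamma-secretase, a complex of a presenilin with nicastrin and smaller subunits, and the same enzymes cut many other proteins of the cell surface, such as Notch receptors and growth factor precursors. APP and APLP2 are made in most tissues, while APLP1 is known mainly from neurons.

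The coding stretches that carry these functions were read from the principal GENCODE M21 transcript of each gene and are shown because the family is defined by them. App encodes the amyloid-beta stretch in codons 597 to 638 of its 695 codons, 126 bases on the minus strand of chromosome 16, where the capitals mark the first codon, in front of which beta-secretase cuts:

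App: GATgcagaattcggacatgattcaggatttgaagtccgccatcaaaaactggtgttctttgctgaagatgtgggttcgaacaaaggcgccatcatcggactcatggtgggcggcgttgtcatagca

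The cytoplasmic tails of the 3 precursors end alike. The stretches from the internalisation motif, in capitals, to the stop codon are:

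App: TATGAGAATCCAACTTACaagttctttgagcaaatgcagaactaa

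Aplp1: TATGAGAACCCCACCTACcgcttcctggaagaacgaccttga

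Aplp2: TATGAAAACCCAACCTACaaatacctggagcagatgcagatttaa

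Of the 18 bases in capitals, 15 were the same in App and Aplp1, 15 in App and Aplp2, and 16 in Aplp1 and Aplp2. Among the enzymes, both alpha-secretases are metalloproteases with a zinc-binding site, in capitals here, of which 26 of 33 bases were the same:

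Adam10: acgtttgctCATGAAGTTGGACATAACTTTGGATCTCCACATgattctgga

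Adam17: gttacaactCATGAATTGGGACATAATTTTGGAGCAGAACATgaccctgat

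Bace1 and Bace2 encode aspartic proteases, and the stretch around the first of the catalytic aspartates, whose triad is in capitals, was the same at 31 of 42 bases:

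Bace1: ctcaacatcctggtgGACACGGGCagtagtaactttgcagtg

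Bace2: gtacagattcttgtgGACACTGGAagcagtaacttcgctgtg

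The counts are per gene, so that they do not tell apart the isoforms of these genes.

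Total counts lay between 37288174 and 51136331 per library, of which 60.5% to 67% were from mitochondrially encoded genes. Values are given as CPM, the count scaled to library size, after TMM normalization. Values listed together are in the order of replicates 1, 2 and 3. Zeb2 was at 61.3, 116.05 and 71.9 CPM in WT and at 59.6, 72.6 and 66.5 CPM in Zeb2 cKO libraries. On the log2 scale this was a difference of -0.33 ± 0.25 (SE, quasi-likelihood test of edgeR, adjusted p = 0.957), and -0.0058 without WT replicate 2. The targeted gene was not lower in Zeb2 cKO libraries beyond the spread, so its level does not check the genotype labels, and these counts include Zeb2 of cells in which the Myh6 promoter is not active. WT replicate 2 stood apart from the other 5 libraries in its cell type markers. The summed level of 12 fibroblast markers was 10966 CPM in that library and between 2259 and 2862 CPM in the others, and that of 12 macrophage and monocyte markers was 943 CPM against 237 to 333 CPM in the others. The summed level of 12 cardiomyocyte markers was 36763 CPM in WT replicate 2 and between 59526 and 72824 CPM in the others, and these markers of heart muscle were the highest list in each library. Fold changes of the members, the ratios between them and the list medians are therefore also given without WT replicate 2. In bulk tissue, fewer cells of a type and less RNA per cell cannot be told apart.

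App, the precursor of amyloid-beta, lies on chromosome 16 (GRCm38, 84949685 to 85173766, minus strand). It was at 67.8, 128 and 68.9 CPM in the WT hearts and 58.4, 68.0 and 80.1 CPM in Zeb2 cKO hearts. WT replicate 2 was 1.88 times the mean of the other WT libraries, and the other libraries of both genotypes overlapped, between 58.4 and 80.1 CPM. The group means were 88.4 ± 34.7 CPM in WT and 68.8 ± 10.8 CPM in Zeb2 cKO (SD, n = 3 each). The log2 fold change was -0.36 with a 95% interval of -1.02 to 0.30 (adjusted p = 0.957, edgeR). Without WT replicate 2 it was 0.013, with an interval of -0.31 to 0.34.

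Aplp2, the widely expressed relative (chromosome 9, 31149557 to 31211815), had the highest mean CPM of the 9 genes in both groups. It was at 150, 110 and 132 CPM in the WT hearts and 151, 156 and 137 CPM in Zeb2 cKO hearts. Here WT replicate 2 was the lowest of the 6 libraries, opposite to its place for App, which was above Aplp2 in this library alone, and the groups overlapped. Zeb2 cKO hearts were 0.18 higher on the log2 scale (95% interval -0.20 to 0.56, adjusted p = 0.957, edgeR), and 0.076 without WT replicate 2.

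Aplp1, the neuronal relative (chromosome 7, 30434982 to 30445535), was counted with 27 to 58 reads per library. It was at 0.717, 0.957 and 0.859 CPM in the WT hearts and 1.16, 0.807 and 0.800 CPM in Zeb2 cKO hearts. The highest of the 6 values came from Zeb2 cKO replicate 1 and the lowest from WT replicate 1, so that the groups overlapped. The other WT values both lay above the other Zeb2 cKO values. Its log2 fold change was 0.13 (95% interval -0.49 to 0.74, adjusted p = 0.960, edgeR), and 0.23 without WT replicate 2. The 12 Schwann cell and neuron markers summed to between 9.90 and 13.5 CPM, and 7 of them passed the filter on low counts.

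Within a library, the share of the 3 precursors can be set side by side per length of their merged exons. App made up 16.8%, 34.1% and 18.9% of the precursor level per length in WT replicates 1, 2 and 3, with 14.7%, 16.3% and 20.7% in Zeb2 cKO hearts. Aplp2 made up the rest but for Aplp1, which was between 0.767% and 1.26%. These shares depend on the length used. The means of App and Aplp2 were 6.05 and 23.7 CPM per kilobase of merged exons, and 24.8 and 38.4 of the principal transcript. The share of App in WT replicate 2 lay above all other libraries, which did not differ by genotype beyond their spread. The log2 ratio of App to Aplp2, in which the scaling between libraries cancels, was -1.77 ± 0.73 in WT and -2.26 ± 0.31 in Zeb2 cKO libraries (SD, n = 3 each, exact permutation test, two-sided p = 0.4). Without WT replicate 2 the difference went from -0.50 to -0.076. Adjusted over the 6 ratios compared the p was 1, and with 3 libraries in each group an exact test cannot go below 0.1.

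**Figure D1:**
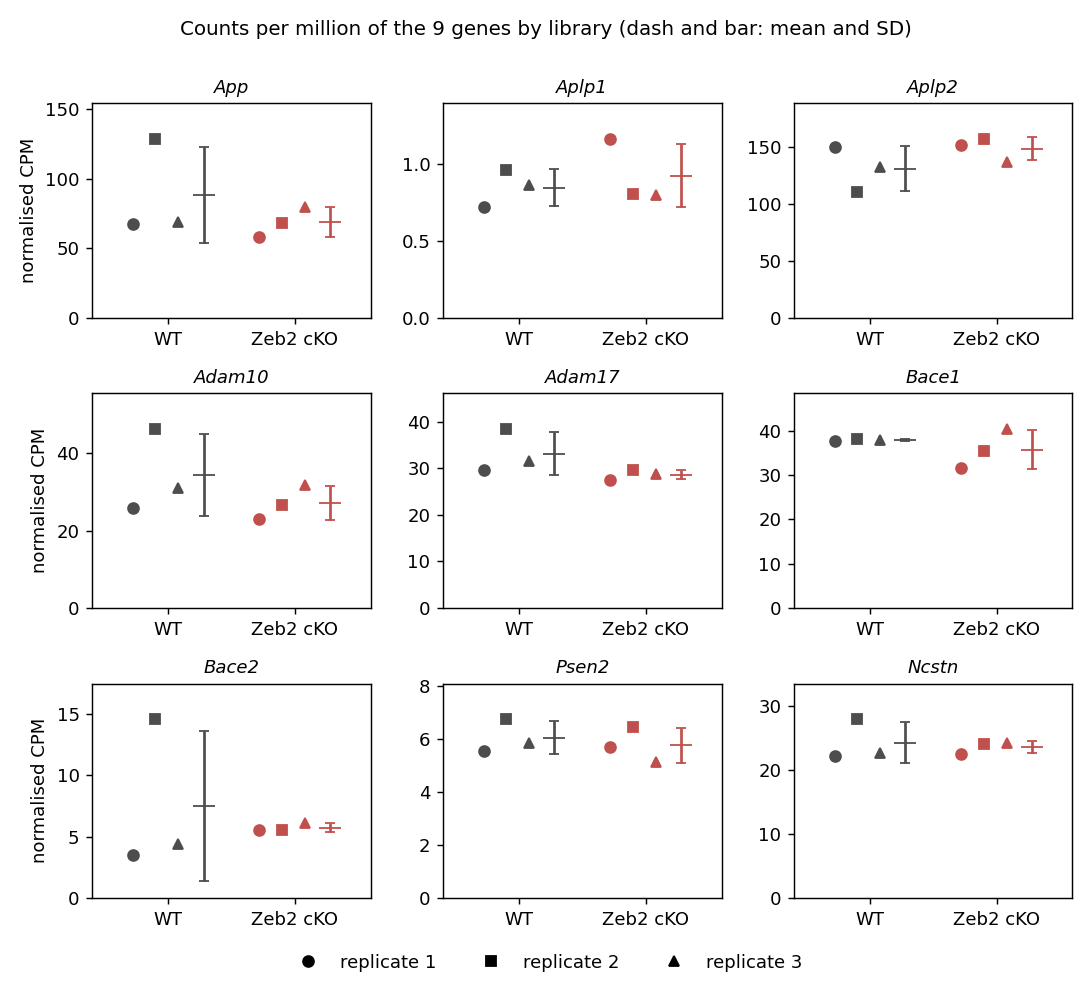
Normalised CPM of the 9 genes in each library, by genotype, with the replicate number as the symbol and the mean ± SD (n = 3) beside the points; each axis starts at 0. WT replicate 2 is the highest library for App, Adam10, Adam17, Bace2, Psen2 and Ncstn and the lowest for Aplp2.

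The alpha-secretases were both lower in the mean of Zeb2 cKO libraries, by less than the test could separate from the spread. Adam10, the main alpha-secretase of neurons and an activator of Notch (chromosome 9, 70678997 to 70780229, plus strand), had values of 25.9, 46.2 and 31.1 CPM in the WT hearts and 23.0, 26.6 and 31.8 CPM in Zeb2 cKO hearts. As for App, WT replicate 2 was the highest library. Its log2 fold change was -0.34 (95% interval -0.90 to 0.22, adjusted p = 0.957, edgeR), and -0.066 without WT replicate 2. Adam17, which releases tumour necrosis factor and EGF receptor ligands (chromosome 12, 21323509 to 21373632), had values of 29.6, 38.3 and 31.5 CPM in the WT hearts and 27.5, 29.5 and 28.8 CPM in Zeb2 cKO hearts. It was the only member whose groups did not overlap with all 6 libraries (exact permutation test, two-sided p = 0.1, the smallest that 3 against 3 allows), and the nearest WT and Zeb2 cKO libraries, at 29.60 and 29.52 CPM, were almost equal. Among all tested genes, 2.97% had groups that did not overlap with Zeb2 cKO lower and 3.39% with Zeb2 cKO higher. The log2 fold change of Adam17 was -0.21 (95% interval -0.52 to 0.10, adjusted p = 0.957, edgeR) and, without WT replicate 2, -0.090.

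The log2 ratio of Adam10 to Adam17 per length was 0.35, 0.81 and 0.53 in the WT hearts and 0.28, 0.39 and 0.68 in Zeb2 cKO hearts. Adam10 thus stood above Adam17 in each library when the merged exons were used as length, and the ratio overlapped between the genotypes (exact permutation test, two-sided p = 0.6). The difference between genotypes was -0.11 on the log2 scale, and 0.016 without WT replicate 2. With the longest or the principal transcript as length the order of both genes turned, and Adam17 was above Adam10 in 4 of 6 libraries.

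Bace1, the beta-secretase (chromosome 9, 45838580 to 45864399, plus strand), varied least of the 9 between WT libraries. It was at 37.6, 38.1 and 37.8 CPM in the WT hearts and 31.5, 35.3 and 40.3 CPM in Zeb2 cKO hearts, so that the WT libraries lay inside the range of the Zeb2 cKO libraries. For Bace1 the log2 fold change was -0.084 (95% interval -0.38 to 0.21, adjusted p = 0.957, edgeR) and -0.076 without WT replicate 2. Of its longest annotated transcript, 34.1% lies in stretches that the opposite strand gives to 3 other annotated genes, Rnf214 among them. The libraries kept the strand, but the strand option of the counting is not given in the sources used here, so the level of Bace1 is uncertain to that extent. The same holds for 6.96% of the longest Adam17 transcript, shared with Iah1, and for 6.5% of that of Ncstn, shared with Copa.

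Bace2, the relative of Bace1 that can also cut APP within the amyloid-beta stretch (chromosome 16, 97356742 to 97442936), had the widest spread. It was at 3.53, 14.6 and 4.43 CPM in the WT hearts and 5.54, 5.53 and 6.14 CPM in Zeb2 cKO hearts. WT replicate 2 was 3.66 times the mean of the other WT libraries, which were both below all Zeb2 cKO libraries. The log2 fold change was -0.39 (95% interval -1.61 to 0.82, adjusted p = 0.957, edgeR). Without WT replicate 2 its sign turned to 0.53 (95% interval 0.19 to 0.87, unadjusted p = 0.00753, adjusted p = 1.00, edgeR). In that comparison 2.63% of all tested genes had an unadjusted p under 0.05, and Bace2 was the only member among them. Markers of fibroblasts, macrophages, lymphocytes and of Schwann cells and neurons moved in the same direction as Bace2 in WT replicate 2. The part of these cell types in its level was not tested.

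The ratio of Bace1 to Bace2 per length was 13.2, 3.25 and 10.6 in the WT hearts and 7.06, 7.93 and 8.15 in Zeb2 cKO hearts. The log2 means, 2.94 ± 1.09 and 2.94 ± 0.11 (SD, n = 3 each), differed by 0.00062 (exact permutation test, two-sided p = 1), with WT libraries on both sides of the Zeb2 cKO libraries. Without WT replicate 2, whose ratio was the lowest, the difference was -0.62 and both other WT libraries lay above all Zeb2 cKO libraries (exact permutation test, adjusted p = 0.6).

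Of gamma-secretase, Psen2, a presenilin with the catalytic aspartates (chromosome 1, 180227004 to 180263438), had values of 5.55, 6.74 and 5.86 CPM in the WT hearts and 5.70, 6.45 and 5.14 CPM in Zeb2 cKO hearts. Ncstn, which encodes nicastrin, the subunit that receives the substrate (chromosome 1, 172066013 to 172082795), had values of 22.2, 27.9 and 22.7 CPM in the WT hearts and 22.6, 24.1 and 24.3 CPM in Zeb2 cKO hearts. For both genes WT replicate 2 was the highest library and the groups overlapped. The log2 fold change was -0.072 for Psen2 (95% interval -0.42 to 0.28, adjusted p = 0.960, edgeR) and -0.038 for Ncstn (95% interval -0.34 to 0.26, adjusted p = 0.978, edgeR). Both signs turned without WT replicate 2, to 0.015 for Psen2 and 0.079 for Ncstn. Per length of merged exons Ncstn was between 4.07 and 5.16 times the level of Psen2 in the 6 libraries, the narrowest range of the ratios compared on the log2 scale. With the other lengths the means of both genes were closer. They were 7.94 and 2.92 CPM per kilobase of the longest transcript, and 8.26 and 2.95 of the principal transcript. The log2 difference between genotypes in this ratio was 0.042, or 0.066 without WT replicate 2.

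With all 6 libraries, 0 of the 9 members passed an adjusted p of 0.05, as did 0% of all tested genes, beside 280 genes with an unadjusted p under 0.05. DESeq2 called 2 genes and no member. Of the members, 4 lay under -0.2 on the log2 scale, App, Adam10, Adam17 and Bace2, where 22.6% of all tested genes were under -0.2. A value over 0.2 was found for 0 members and for 15.9% of all tested genes. The median over the members was -0.084, beside -0.0069 over all tested genes. Without WT replicate 2, 0 members were under -0.2 (11.7% of all tested genes) and 2 were over 0.2, Aplp1 and Bace2 (14.2% of all tested genes), and the median over the members was 0.015. Groups that did not overlap were then found for Adam17, lower in Zeb2 cKO as for 7.22% of all tested genes, and for Bace2, higher in Zeb2 cKO as for 8.31% of them.

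**Figure D2:**
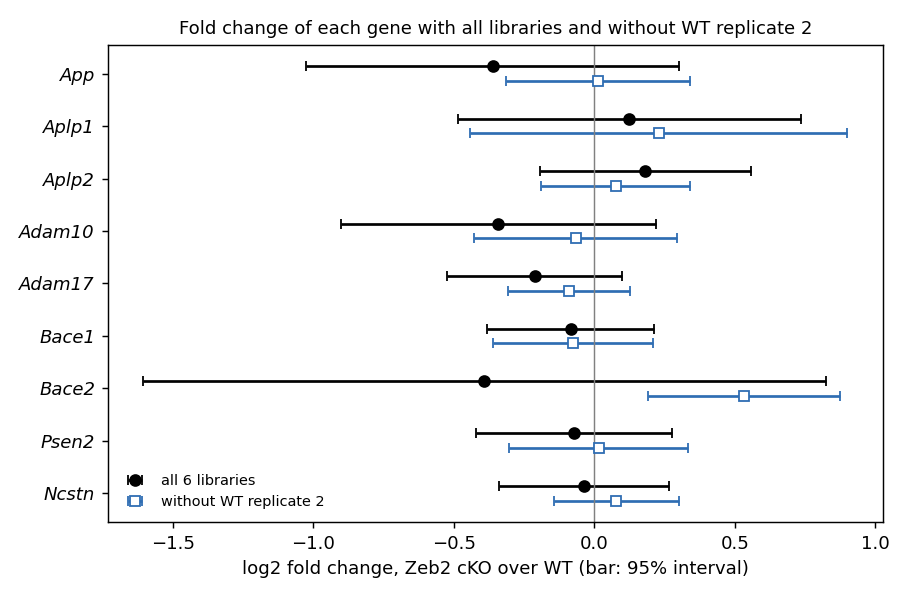
Log2 fold change of each gene in Zeb2 cKO over WT libraries, with its 95% interval, for all 6 libraries (filled circles) and without WT replicate 2 (open squares). With all libraries each interval includes 0, and without WT replicate 2 only that of Bace2, 0.19 to 0.87, does not.

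To compare the genes with each other, CPM were divided by the length of the merged exons in kilobases. Over the 6 libraries Aplp2 was highest, at 23.7 ± 2.89 CPM per kilobase (SD, n = 6). A middle group followed, with Adam10 at 6.27 ± 1.68, App at 6.05 ± 1.95, Ncstn at 6.03 ± 0.54, Bace1 at 5.79 ± 0.48 and Adam17 at 4.32 ± 0.54 CPM per kilobase. Psen2 was at 1.36 ± 0.14, Bace2 at 0.839 ± 0.507 and Aplp1 at 0.293 ± 0.052 CPM per kilobase. Neighbours in this order were compared within libraries by an exact sign-flip permutation test, whose smallest two-sided p with 6 libraries is 0.03125. The pairs and their direction came from the means of the same 6 libraries, so these p values describe the spread between libraries. They do not test the order itself or the choice of length. That p was reached by Aplp2 over Adam10, Bace1 over Adam17, Adam17 over Psen2 and Bace2 over Aplp1, each higher in 6 of 6 libraries (adjusted p = 0.0625 over the 8 pairs). Adam10 and App (p = 0.21875), App and Ncstn (p = 0.75) and Ncstn and Bace1 (p = 0.375) did not differ beyond their spread by the same exact test. Psen2 was above Bace2 in 5 libraries and below it in WT replicate 2 (p = 0.0625, exact test).

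The order of the middle group depended on the length that was used. Adam10, second with merged exons, was at 6.70 CPM per kilobase of the longest or the principal transcript, below Adam17 at 6.91 and 6.95, and Adam17 was then also above Bace1 at 6.07. The place of App moved as well. Merged exons of App hold 12996 bases, since they add up all annotated isoforms, whereas its principal transcript holds 3176 bases. Per kilobase of the principal transcript App was at 24.8 ± 7.99 CPM, next to Aplp2 at 38.4 ± 4.67 CPM (SD, n = 6 each) and above Ncstn in 6 of 6 libraries (exact test, p = 0.03125, adjusted p = 0.05). In WT replicate 2 App was then above Aplp2, which was higher in the other 5 libraries (exact test, p = 0.0625). Psen2, Bace2 and Aplp1 were the lowest of the 9 with each of the 3 lengths tried.

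**Figure D3:**
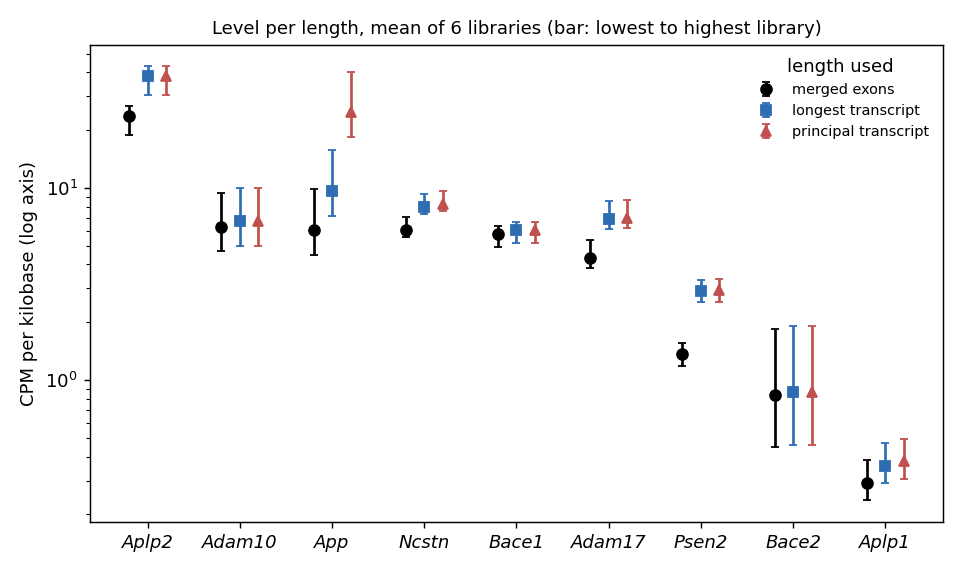
CPM per kilobase of each gene on a log axis, as the mean of the 6 libraries with bars from the lowest to the highest library, for 3 definitions of gene length. App lies at 6.05 with merged exons and at 24.8 with the principal transcript, while Aplp2 is the highest and Aplp1 the lowest with each.

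Across the libraries, App and Adam10 varied together with WT replicate 2 on top. Among 5895 genes with a mean of at least 10 CPM, likeness was measured as the root mean square difference of log2 CPM, each gene centred on its mean over the 6 libraries. The genes most like App were Nav1 (difference 0.021), Bmp2k (0.048) and Serpinh1 (0.049), the collagen chaperone, beside a spread of 0.36 for App itself. Serpinh1 was at 131, 240 and 129 CPM in the WT hearts and 112, 125 and 140 CPM in Zeb2 cKO hearts. Adam10 ranked 48 in likeness to App (0.099), and Aplp2 ranked 4161 (0.52). Most like Aplp2 were Fbxw8 (0.019), Anxa6 (0.021) and Ctbp1 (0.031). Each of these 3 genes had its lowest value in WT replicate 2, as Aplp2 did. The measure rests on 6 libraries, of which 1 stands apart.

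**Figure D4:**
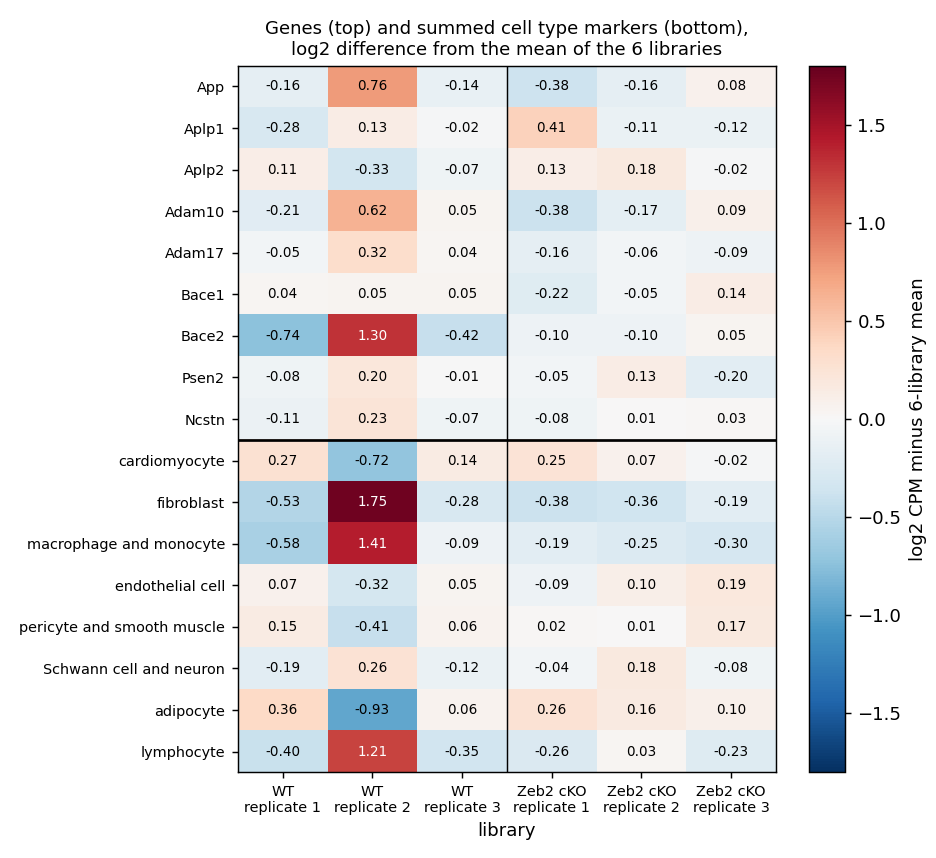
Log2 CPM of each gene (top) and of the summed markers of each cell type (bottom) in each library, minus the mean of the 6 libraries; red is above and blue below that mean. In WT replicate 2 Bace2 (1.30), App (0.76) and Adam10 (0.62) are above it. So are fibroblast (1.75), macrophage and monocyte (1.41), lymphocyte (1.21) and Schwann cell and neuron markers (0.26). Aplp2 (-0.33) is below it in that library, as are adipocyte (-0.93), cardiomyocyte (-0.72), pericyte and smooth muscle (-0.41) and endothelial cell markers (-0.32).

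Marker lists of 8 cell types were set beside the members. Of 12 fibroblast markers 11 had a log2 fold change under -0.2, and of 12 macrophage and monocyte markers 12 did, with medians of -0.999 and -0.814. These became 0.14 and 0.034 without WT replicate 2. Their sums ranged from 2259 to 10966 CPM in WT and from 2498 to 2862 CPM in Zeb2 cKO libraries for fibroblasts, and from 237 to 943 CPM and from 287 to 312 CPM for macrophages and monocytes. Col3a1, the fibrillar collagen with the highest level among the fibroblast markers, was at 722, 4872 and 822 CPM in the WT replicates, and Lyz2, the lysozyme of myeloid cells, at 82.0, 419 and 119 CPM. Sums of the other lists ranged, in WT and then in Zeb2 cKO libraries, from 689 to 907 and from 807 to 984 CPM for endothelial cells, from 1189 to 1756 and from 1590 to 1784 CPM for pericytes and smooth muscle, from 49.7 to 121 and from 101 to 113 CPM for adipocytes, and from 7.17 to 21.9 and from 7.87 to 9.66 CPM for lymphocytes. No list was at 0 throughout, but the neuronal marker Th had at most 1 count in any library. The part of these cell types in the levels of App, Adam10, Bace2 and Aplp2 was not tested.

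Genes that work with the members were followed as lists, in each of which 0 genes passed an adjusted p of 0.05 in either direction. For comparison with the counts below, 22.6% of all tested genes were under -0.2 on the log2 scale and 15.9% over 0.2. Groups that did not overlap were found for 2.97% of them with Zeb2 cKO lower and for 3.39% with Zeb2 cKO higher. Of 6 other gamma-secretase genes, 4 lay under -0.2 on the log2 scale and 1 over 0.2, with a median of -0.31 that was -0.15 without WT replicate 2. The smallest p of this list was that of Aph1c, a subunit that stabilises the complex, at 0.717, 1.34 and 0.755 CPM in the WT hearts and 0.679, 0.530 and 0.540 CPM in Zeb2 cKO hearts (log2 fold change -0.69, SE 0.32, and -0.33 without WT replicate 2). Its close relative Aph1b was counted as a gene of its own, so reads may be split between them. Tmed10, a cargo receptor of the secretory pathway that binds the complex, followed with a log2 fold change of -0.32, and of -0.11 without WT replicate 2.

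Of 8 other ADAM genes, 4 were under -0.2 and 1 was over 0.2, with a median of -0.19 that was -0.091 without WT replicate 2. Adam8, a protease of leukocytes, was at 1.04, 3.26 and 0.964 CPM in the WT hearts and 0.679, 0.461 and 0.856 CPM in Zeb2 cKO hearts, so that its groups did not overlap (log2 fold change -1.39 ± 0.54, SE, adjusted p = 0.957, edgeR). The log2 fold change of Adam8 was -0.57 without WT replicate 2. The groups of Adam19, which was named after its values were seen, did not overlap either. It was at 35.1, 35.6 and 42.5 CPM in the WT hearts and 22.0, 33.9 and 34.1 CPM in Zeb2 cKO hearts. Its log2 fold change was -0.33, and -0.37 without WT replicate 2. Adam12, found in activated mesenchymal cells, had a log2 fold change of -0.77, which was -0.36 without WT replicate 2.

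Among 13 tested regulators of ADAM10 and ADAM17, 6 were under -0.2 and 2 over 0.2, and the median moved from -0.17 to -0.030 without WT replicate 2. Timp3, an inhibitor of ADAM17 that is bound to the matrix, was at 94.8, 247 and 88.5 CPM in the WT hearts and 90.8, 92.8 and 93.9 CPM in Zeb2 cKO hearts, and its log2 fold change of -0.63 became 0.015 without WT replicate 2. Timp1 went from -1.31 to -0.10 and Reck, a membrane-anchored protease inhibitor, from -0.68 to 0.095. Tspan14, a tetraspanin that escorts ADAM10, was at 8.07, 9.78 and 8.33 CPM in the WT hearts and 6.41, 7.97 and 7.74 CPM in Zeb2 cKO hearts. Its groups did not overlap, with a log2 fold change of -0.24 that was -0.15 without WT replicate 2. Tspan33, another tetraspanin of this family, had groups that did not overlap in the other direction (log2 fold change 0.33, at most 31 counts), and was named after its values were seen. Over all tested genes the shares were 2.97% lower and 3.39% higher.

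Of 12 tested APP adaptors, which bind the cytoplasmic tail or related motifs, 4 were under -0.2 and 1 over 0.2, and the median went from -0.098 to -0.0076 without WT replicate 2. Apbb1, the tail-binding protein Fe65, was at 19.8, 12.4 and 18.8 CPM in the WT hearts and 25.0, 22.9 and 18.7 CPM in Zeb2 cKO hearts (log2 fold change 0.39, and 0.20 without WT replicate 2). Gulp1, Dab2 and Numbl had values of -0.58, -0.45 and -0.28, all between -0.011 and 0.042 without that library.

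Among 15 genes of APP and BACE1 trafficking, 2 were under -0.2 and 2 over 0.2, with medians of -0.086 and, without WT replicate 2, -0.0029. Lrp1, an endocytic receptor that binds APP, was at 274, 672 and 293 CPM in the WT hearts and 215, 239 and 300 CPM in Zeb2 cKO hearts (log2 fold change -0.72, and -0.17 without WT replicate 2). Picalm, an adaptor of clathrin coats, had a log2 fold change of -0.44 and, without that library, of -0.27. Sorl1, a sorting receptor of APP, had values of 0.32 and 0.25, and Cd2ap of -0.18 and -0.072.

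Of the enzymes that degrade amyloid-beta, 5 were tested, with a median of 0.023, or 0.060 without WT replicate 2. Ide, the insulin-degrading enzyme, was at 48.2, 60.6 and 61.6 CPM in the WT hearts and 90.1, 76.0 and 60.8 CPM in Zeb2 cKO hearts. Its log2 fold change of 0.41 (SE 0.18, adjusted p = 0.957, edgeR) was 0.46 without WT replicate 2 (unadjusted p = 0.0361, adjusted p = 1.00), and its groups overlapped through Zeb2 cKO replicate 3. Ece2 had a log2 fold change of -0.57, and of 0.060 without WT replicate 2.

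Of 26 tested genes for other secretase substrates, 11 were under -0.2 and 6 over 0.2, with a median of -0.14 that was 0.025 without WT replicate 2. Without that library 4 were under -0.2 and 5 over 0.2, beside 11.7% and 14.2% of all tested genes. Nrg1, a growth factor precursor cut by BACE1 and ADAM proteases, was at 1.14, 8.89 and 2.03 CPM in the WT hearts and 1.40, 1.15 and 1.54 CPM in Zeb2 cKO hearts, with a log2 fold change of -1.56 that was -0.21 without WT replicate 2. Ncam1 went from -1.14 to -0.15, Tnfrsf1b from -0.77 to -0.078 and Il6ra, the interleukin-6 receptor that ADAM proteases shed, from -0.73 to -0.24. The groups of Il6ra did not overlap, as for 2.97% of all tested genes with Zeb2 cKO lower.

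**Figure D5:**
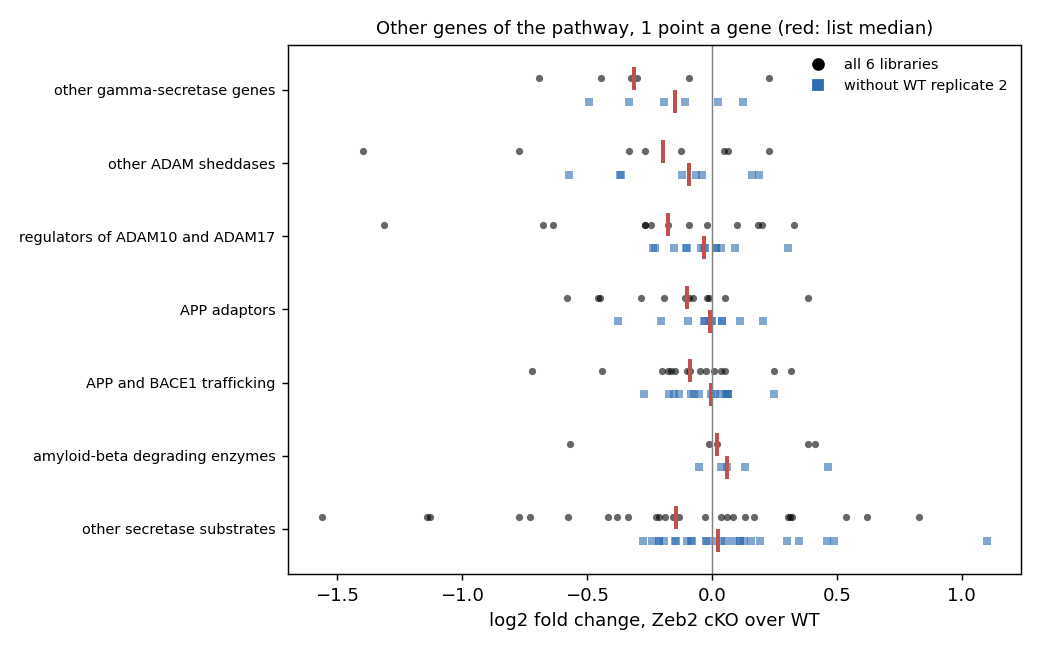
Log2 fold change, Zeb2 cKO over WT, of each tested gene in 7 lists of genes that work with the secretases, with all 6 libraries (black circles) and without WT replicate 2 (blue squares), and the list median in red. The median of the other gamma-secretase genes is -0.31 with all libraries and -0.15 without WT replicate 2, and those of the other lists lie closer to 0.

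ZEB2 is a transcription factor that binds E-boxes of the form CACCTG, and the direction of its effect on these genes was not tested. RefSeq promoters of 300 bases (build GRCm38.p6) were at hand for 7 of the 9 genes in 8 windows, and 2 of these windows, those of App and Aplp1, held CACCTG on either strand. The same letters were in 20.2% of all 32851 promoters of this length. The window of App, chr16:85173658-85173957 on the minus strand, is shown because App is the precursor of amyloid-beta and its window held the match. The match in capitals begins 144 bases before the start site:

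App: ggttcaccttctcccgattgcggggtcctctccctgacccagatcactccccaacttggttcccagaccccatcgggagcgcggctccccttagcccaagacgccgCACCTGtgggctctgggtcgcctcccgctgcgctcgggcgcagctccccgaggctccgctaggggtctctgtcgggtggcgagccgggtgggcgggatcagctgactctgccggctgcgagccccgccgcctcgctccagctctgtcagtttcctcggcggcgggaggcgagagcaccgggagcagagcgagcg

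Binding of ZEB2 was not measured in these data.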

How the data were processed

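RNA-seq counts of heart tissue were available for 3 WT and 3 Zeb2 cKO libraries. The deposited table, made by the authors, holds raw counts for each gene from strand-specific single-end reads of 75 bases with the STAR workflow on the Gencode M4 annotation (GRCm38). The STAR version, the strand option and the treatment of multi-mapping reads are not given in the sources used here. The submitters' processing notes list DESeq 1.2, which was not used here. Each of the 6 columns was matched to 1 library by its description, and 0 columns were left out. The labels number the replicates and do not say that they are separate mice, while the paper states for its experiments that n counts biological replicates. Between libraries of the same group, the counts differed by a chi-squared per degree of freedom of 16.9 to 186. The p-values measure the spread between these libraries, and the technical part of that spread was not tested.

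Symbols, coordinates and lengths came from GENCODE M21 (GRCm38) by gene identifier. Counts were normalized with TMM and filtered with filterByExpr in edgeR 4.0.16 (R 4.3.3), and genotypes were compared with glmQLFit and glmQLFTest, with Benjamini-Hochberg adjustment over the 14746 genes kept. DESeq2 1.42.0 was an alternative. The steps were tested on simulated data. Single values were compared with exact permutation tests, two-sided (scipy 1.17.1). Shared stretches were searched with BLAST 2.17.0, at 75 or more bases and 95% identity.

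Counts of at least 37288174 per library leave counting error small for most members, but it adds to the spread for low genes such as Aplp1, Bace2, Aph1c and Adam8. Genes were named by a rule: the 9 members, Zeb2, the 2 genes of each pathway list with the smallest p (4 in lists of 14 or more), the highest gene of each marker list, and the 3 genes most like App and Aplp2. Not all are printed. Members, lists and rule were chosen with earlier results of these data known. Replicate numbers 1 to 3 occur in both groups with no stated link, and the correlations of same-numbered deviations (0.0878, -0.137 and -0.0869) did not pair them.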

Additional observations from a re-analysis of the deposited data

How the results depend on the processing

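Among the members, the log2 fold change kept its sign for Aplp2, Adam10, Adam17 and Bace1 under the normalization, filter, test, dispersion, replicate block and mitochondrial alternatives and with each library left out, and 0 of the 9 passed an adjusted p of 0.05 under any of them. The sign turned only when a library was left out. The log2 fold change then ran from -0.52 to 0.013 for App, from -0.073 to 0.23 for Aplp1, from -0.73 to 0.53 for Bace2, from -0.16 to 0.015 for Psen2 and from -0.097 to 0.079 for Ncstn. Values above 0 came without WT replicate 2, and for Psen2 also without Zeb2 cKO replicate 3, while Aplp1 was below 0 without Zeb2 cKO replicate 1. In these comparisons 0 to 4 members were under -0.2, 0 to 2 were over 0.2, and the groups of 1 to 3 members did not overlap. Over all genes 1753 to 4342 were under -0.2 and 2120 to 3995 over 0.2, and without a filter on low counts 7350 and 6797 were. Without WT replicate 2, groups did not overlap for 7.22% of all tested genes with Zeb2 cKO lower and for 8.31% with Zeb2 cKO higher. With all 6 libraries these shares were 2.97% and 3.39%, and they were not counted with another library left out. DESeq2 called 2 genes where edgeR called 0, beside 280 genes with an unadjusted p under 0.05. With the replicate block the log2 fold change of Bace2 was -0.090 and that of App -0.30, with 0 genes called and 247 at an unadjusted p under 0.05, and the shared numbers do not pair the libraries.

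The ratios between members kept p values above 0.05, which 3 against 3 cannot pass. With each library left out, the log2 difference between genotypes ran from -0.76 to -0.076 for App to Aplp2, from -0.29 to 0.14 for Aplp1 to Aplp2, from -0.62 to 0.39 for Bace1 to Bace2, from -0.22 to 0.016 for Adam10 to Adam17, from -0.058 to 0.11 for Ncstn to Psen2 and from -0.37 to 0.085 for App to Bace1, and 0 to 2 ratios had groups that did not overlap. Levels per kilobase moved with the length used. With the longest annotated transcript they were 9.63 for App, 0.357 for Aplp1, 38.4 for Aplp2, 6.91 for Adam17, 2.92 for Psen2 and 7.94 for Ncstn. With the principal transcript, a length chosen after the data were seen, they were 24.8, 0.377, 38.4, 6.95, 2.95 and 8.26.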
